A study of Mus musculus with 24 samples.

Results

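The mouse carries a cluster of cathepsin genes on chromosome 13 that are transcribed in the placenta, and beside them 2 genes for small proteins of the CTLA-2 type. The 10 genes described here are the cathepsins Cts3, Cts6, Cts7, Cts8, Ctsj, Ctsm, Ctsq and Ctsr and the inhibitor genes Ctla2a and Ctla2b. They were picked by gene name from the 55401 genes in the deposited count table, and all 10 were found there. Bulk polyA RNA was sequenced from the maternal-fetal interface (MFI) of wild-type (WT) mice and of mice homozygous for a deletion in C1qtnf6 (C1qtnf6-KO, or KO), at 4 stages of gestation (gd10.5 and, from then on, gd14.5, gd16.5 and gd19.5). Each of the 8 groups holds 3 libraries, which makes 24. C1qtnf6 encodes the secreted protein CTRP6. The deletion removes exons of the gene, was made with CRISPR-Cas9 and is carried by 1 constitutive line (strain C57BL/6JCya), both genotypes have a C57BL/6 background, and gestation was dated from the vaginal plug. The labels name no agent for these libraries and give no age of the mice. The sources used here do not give the number of animals, dams or litters behind a library, so a p-value measures the spread between these libraries only.

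Cathepsins of this group are papain-like cysteine proteases related to cathepsin L. They are made as inactive proenzymes, in which a propeptide blocks the active site until it is cleaved off, and they act in lysosomes or after secretion. The expansion into many genes is known from rodents and not from humans, and their transcripts are found mainly in trophoblast, including trophoblast giant cells, spongiotrophoblast and the trophoblast that lines the labyrinth. CTLA-2 proteins resemble the propeptide of such a cathepsin without the enzyme that follows it, and CTLA-2 alpha, the product of Ctla2a, inhibits cathepsin L-like proteases. Ctla2a was first cloned from activated T cells and is abundant in decidua and placenta.

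All 10 genes lie on the minus strand of chromosome 13 within 674.8 kb, chr13:60895350-61570127 of GRCm38. Ctla2b and Ctla2a lie at one end, followed by Ctsj, Ctsq, Ctsr, Cts6, Cts8, Cts7, Ctsm and Cts3. The interval holds 26 genes in the table. Of the 16 others, 11 never had more than 100 counts in a library, and Tpbpa and Tpbpb, which mark spongiotrophoblast, are among the rest. Cts3 and Ctsm are the closest relatives among the cathepsins, with 88.1% identity over 1231 aligned transcript bases. The best match of any other cathepsin within the group had 72.7% to 78.1% identity. Ctla2a and Ctla2b were 95.9% identical over 435 aligned bases, and 260 bases of the Ctla2a transcript aligned with that of Cts3 at 69.2% identity.

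The stretches upstream of these genes are shown because the pairs that resemble each other in sequence can then be set against the pairs that resemble each other in expression. RefSeq start sites (GRCm38.p6) were matched for 10 of 10 genes, and the 200 bases before the start are printed 5′ to 3′ on the minus strand. Capitals mark ATTTAAA, the letters TATAAA and the letters CCAAT on either strand. The intervals are chr13:61570128-61570327 for Cts3, chr13:61541840-61542039 for Ctsm, chr13:61005926-61006125 for Ctsj, chr13:61040598-61040797 for Ctsq, chr13:61358197-61358396 for Cts7, chr13:60936626-60936825 for Ctla2a and chr13:60897448-60897647 for Ctla2b.
Cts3: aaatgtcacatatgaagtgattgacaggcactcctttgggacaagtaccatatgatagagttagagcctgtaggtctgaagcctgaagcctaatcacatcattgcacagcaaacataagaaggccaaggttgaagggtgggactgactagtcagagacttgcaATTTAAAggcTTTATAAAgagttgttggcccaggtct
Ctsm: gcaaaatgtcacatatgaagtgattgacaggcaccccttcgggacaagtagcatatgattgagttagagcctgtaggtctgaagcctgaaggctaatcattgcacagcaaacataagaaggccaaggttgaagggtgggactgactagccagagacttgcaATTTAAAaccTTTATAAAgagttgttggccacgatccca
Ctsj: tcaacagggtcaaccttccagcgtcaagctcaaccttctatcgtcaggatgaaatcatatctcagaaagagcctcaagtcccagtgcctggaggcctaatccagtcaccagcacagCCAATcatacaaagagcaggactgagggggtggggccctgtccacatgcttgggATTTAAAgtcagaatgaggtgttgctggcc
Ctsq: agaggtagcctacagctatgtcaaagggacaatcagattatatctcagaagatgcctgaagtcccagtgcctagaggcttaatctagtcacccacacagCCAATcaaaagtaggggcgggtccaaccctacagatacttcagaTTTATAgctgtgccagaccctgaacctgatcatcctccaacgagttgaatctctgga
Cts7: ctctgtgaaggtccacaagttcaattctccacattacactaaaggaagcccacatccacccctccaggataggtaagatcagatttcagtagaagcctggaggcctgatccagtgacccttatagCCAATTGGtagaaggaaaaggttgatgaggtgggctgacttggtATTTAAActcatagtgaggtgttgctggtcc
Ctla2a: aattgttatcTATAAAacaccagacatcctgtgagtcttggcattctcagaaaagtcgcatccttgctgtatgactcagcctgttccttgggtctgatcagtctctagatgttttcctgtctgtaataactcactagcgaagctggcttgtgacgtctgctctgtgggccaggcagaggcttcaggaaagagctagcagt
Ctla2b: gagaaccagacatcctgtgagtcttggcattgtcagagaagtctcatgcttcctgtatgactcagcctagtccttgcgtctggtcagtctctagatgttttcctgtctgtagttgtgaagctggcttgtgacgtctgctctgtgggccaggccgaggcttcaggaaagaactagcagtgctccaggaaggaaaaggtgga

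Over the 250 bases before the start, Cts3 and Ctsm were 90.6% identical and Ctla2a and Ctla2b 76.5%. The other 27 pairs of cathepsins had 45.2% to 65.4% identity, with a median of 53.2%. The letters ATTTAAA stand in 7 of the 8 cathepsins, always on the strand of transcription and between positions -49 and -24 from the start, and in 5.25% of all 32851 promoters in the RefSeq table. Ctsq is the cathepsin without them. The RefSeq start was not the gene end of the count table for every gene. It was 61164188 against 61164256 for Ctsr and 61005925 against 61005959 for Ctsj, whose ATTTAAA lies within the gene by the count table. For 1 gene 2 starts were listed, and the most upstream was used. CCAAT was found in 7 of 8 cathepsins and in 33.8% of all promoters. These 2 motifs were chosen after the sequences had been seen. TATAAA was found in 4 of the 10 genes (12.4% of all promoters), AGATAA in 1 (9.99%), and TGACTCA, whose other strand reads TGAGTCA, in Ctla2a and Ctla2b (4.46%). Both strands of the 250 bases before the start were searched, and Cts3 and Ctsm hold TATAAA on both strands at overlapping positions. A match describes the letters and was not tested as a binding site.

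Total counts per library lay between 20975717 and 37383108, and a limit of detection of 3 counts was 0.0773 to 0.149 CPM, that is, counts scaled to the normalized size of each of the 24 libraries. The deleted gene C1qtnf6 was at 64.7 to 168.3 CPM in WT and at 0.0341 to 2.05 CPM in KO libraries, with no overlap at any stage. Of the trophoblast markers, Prl3b1 and Tpbpa were abundant at every stage, and of the labyrinth markers Synb was at or under the limit of detection. Some libraries stood apart from their groups. KO gd10.5 replicate 2 had 151.4 CPM of Prl3d1, the placental lactogen of early giant cells, where the other 5 libraries of that stage had 1354 to 2982. It had 6540 CPM of Prl3b1, the lactogen that follows, against 1239 to 3596, and 10150 CPM of Tpbpa against 645.3 to 1770. In this library, Prl3d1, which is low at later stages, was low, and Prl3b1 and Tpbpa, which are high at later stages, were high. Not every such gene did so. Prl3a1 was at 77.5 to 104.4 CPM in WT at gd14.5. It had 1.90 CPM in this library, against 1.98 and 2.01 in the other KO libraries of gd10.5. Summed decidual stroma markers were at 2160 CPM in this library and at 3458 to 13240 in the others of gd10.5. Those of natural killer cells were at 336.4 against 556.3 to 803.8. Smooth muscle markers were at 624.5 against 1002 to 1566, and endothelial markers at 1487 against 1914 to 2071. Labyrinth trophoblast markers were higher, at 608.5 against 366.3 to 525.2. Results that rest on KO gd10.5 replicate 2 are given with and without that library. That library was also the one of gd10.5 with RNA of genes on the Y chromosome (71.1 CPM summed over Uty, Kdm5d, Ddx3y and Eif2s3y, at most 0.31 in the other 5). Yolk sac endoderm markers (Afp, Apoa1, Apob, Rbp4 and Ttr) summed to 7682 to 21610 CPM in WT gd16.5 replicate 1 and KO gd16.5 replicates 1 and 2, and to 203.7 to 240.5 in the other 3 libraries of gd16.5. At gd10.5 they summed to 36.1 and 34.1 CPM in WT replicates 2 and 3, to 3780 in WT replicate 1 and to 1251 to 3653 in KO. RNA of the Y-linked genes summed to 89.2 CPM in WT gd16.5 replicate 1 and to 194.1 and 188.3 in KO gd16.5 replicates 1 and 2. It was at most 1.14 in the other libraries of gd16.5. The part of these imbalances in the comparison of KO with WT at gd16.5 was not tested.

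From gd10.5 to gd14.5, 4 cathepsins rose 34.3-fold to 129.9-fold in WT, Ctsj and Ctsr rose 2.43-fold and 2.49-fold, and Cts7 nearly vanished. A gene was called changed at an edgeR adjusted p under 0.05 with an absolute log2 fold change over 1. In WT, 7 of the 9 genes tested were called, where 22.5% of all genes tested were called. Of these 7, 6 rose and 1 fell. Cts8 did not pass the expression filter and was not tested.

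Cts6 had the largest rise. It stood at 5.92, 4.02 and 3.60 CPM in the WT libraries of gd10.5 and at 466, 645.8 and 650.9 CPM at gd14.5. The groups did not overlap, and the log2 fold change was 7.02 (SE 0.31, edgeR adjusted p = 1.815e-11). Cts3 was at 39.8, 42.8 and 39.3 CPM at gd10.5 and at 4339, 4351 and 4154 CPM at gd14.5. Its log2 fold change was 6.72 (SE 1.05, edgeR adjusted p = 3.02e-05), about 105-fold. Ctsm, its closest relative, was at 18.65, 21.0 and 20.9 CPM and then at 1418, 1435 and 1482 CPM, a log2 fold change of 6.16 (SE 1.11, edgeR adjusted p = 0.000123). The libraries within each of these groups differed little. Ctsq, which marks the giant cells that line the sinusoids of the labyrinth, rose from 51.0, 71.8 and 79.2 CPM to 2018, 2435 and 2473 CPM, with a log2 fold change of 5.10 (SE 0.58, edgeR adjusted p = 1.21e-06).

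Ctsj and Ctsr started from higher levels and rose less. Ctsj was at 2030, 2426 and 2309 CPM at gd10.5, above every other cathepsin here on the scale per length as well, and at 5224, 5396 and 5825 CPM at gd14.5 (log2 fold change 1.28, SE 0.28, edgeR adjusted p = 0.000658). Ctsr rose from 206.4, 288.6 and 299.9 CPM to 626.8, 687.5 and 665.6 CPM (log2 fold change 1.32, SE 0.26, edgeR adjusted p = 0.000339). Neither pair of groups overlapped. Cts7 went the other way. Its WT libraries had 704, 561 and 391 counts at gd10.5 and 4, 8 and 6 counts at gd14.5 (log2 fold change -6.62, SE 0.77, edgeR adjusted p = 1.5e-06). At gd16.5 and gd19.5 the 12 libraries of both genotypes had 1 to 18 counts. Cts8 was rarer still, with 9, 6 and 4 counts in WT and 10, 3 and 1 in KO at gd10.5, and 0 counts in all 18 later libraries, each of which allows up to 3 counts. In bulk tissue, more or fewer cells of a type and more or less RNA per cell cannot be told apart. The plot of levels by library shows both patterns.

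**Figure D1:**
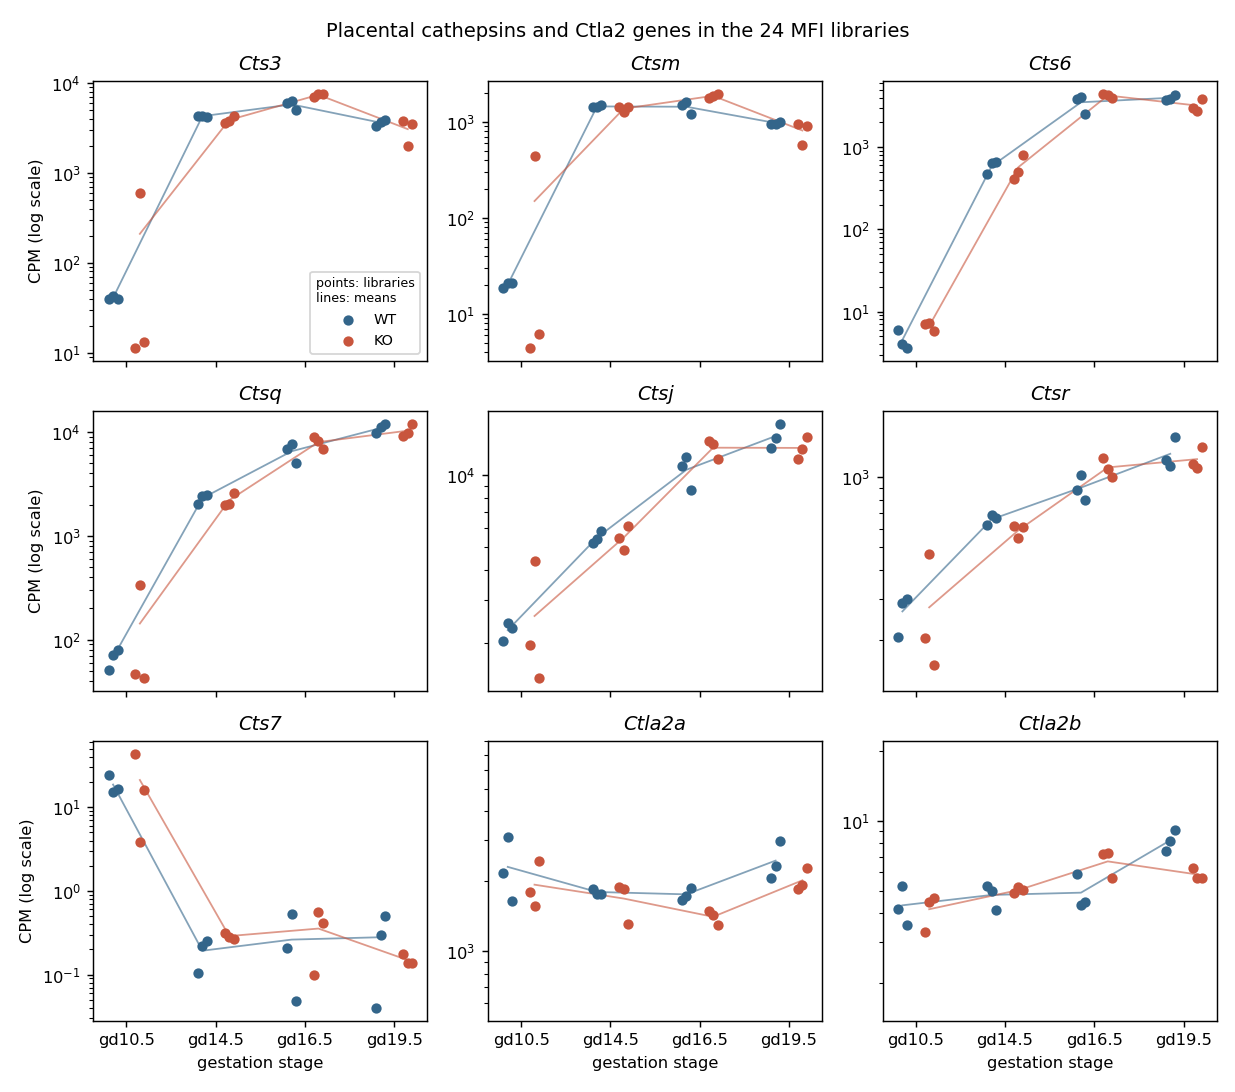
CPM of 9 of the 10 genes (log axis) by gestation stage; points are libraries (WT blue, KO red, 3 per group) and lines join group means. Cts8 is left out because it had 0 counts in all 18 libraries after gd10.5. The KO library at 605.2 CPM of Cts3 and 437.8 CPM of Ctsm at gd10.5 is replicate 2.

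In KO, the same 7 genes were called from gd10.5 to gd14.5 (background 20.1%), 6 higher and Cts7 lower. The log2 fold changes were 6.42 for Cts6 (SE 0.30), 4.21 for Cts3 (SE 0.93), 3.95 for Ctsq (SE 0.55), 3.20 for Ctsm (SE 0.96), 1.10 for Ctsr (SE 0.26), 1.09 for Ctsj (SE 0.27) and -6.17 for Cts7 (SE 0.73). The KO values of Cts3 and Ctsm rest on 1 library, and those of Ctsq, Ctsr and Ctsj moved with it. Without KO gd10.5 replicate 2, Ctsq had a log2 fold change of 5.63 (SE 0.26), Ctsr 1.72 (SE 0.17) and Ctsj 1.70 (SE 0.17). Cts3 then had a log2 fold change of 8.31 (SE 0.27) and Ctsm one of 8.02 (SE 0.24), and all 7 genes stayed called where 25.7% of all genes were. With the fit of these 6 libraries alone, Cts6, Cts7 and Ctsq were called of the 7 (background 16.6%), and the adjusted p of Cts3, Ctsm, Ctsj and Ctsr lay between 0.0592 and 0.161.

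From gd14.5 to gd16.5 the increase went on in Cts6 and Ctsq. In WT these 2 of the 9 genes tested were called (background 5.09%), and in KO these 2 and Ctsj (background 8.61%). Cts6 reached 3889, 4114 and 2548 CPM in WT at gd16.5 (log2 fold change 2.58, SE 0.25, edgeR adjusted p = 1.08e-06) and 4466, 4356 and 3946 CPM in KO, from 409.3, 501 and 807.6 CPM (log2 fold change 2.89, SE 0.25, edgeR adjusted p = 2.83e-07). Ctsq reached 6945, 7642 and 5051 CPM in WT (log2 fold change 1.5035, SE 0.50, edgeR adjusted p = 0.0415). With all 24 libraries, its call in WT is close to the threshold. It was lost when any 1 of the 6 WT libraries was left out (adjusted p of 0.0504 to 0.137) and with the replicate block (0.0517). Its standard error of 0.50 shares the spread of all 24 libraries, KO gd10.5 replicate 2 included. Without KO gd10.5 replicate 2, WT Ctsq stayed called, with a log2 fold change of 1.5032 (SE 0.1784, edgeR adjusted p = 7.446e-06). In KO, with all 24 libraries, Ctsq rose by 1.86 (SE 0.50, edgeR adjusted p = 0.0115). Ctsj had log2 fold changes of 0.94 in WT (edgeR adjusted p = 0.0214, under the fold threshold) and 1.24 in KO (SE 0.28, edgeR adjusted p = 0.00303). Cts3, Ctsm, Ctsr and both inhibitor genes were not called in either genotype, with log2 fold changes between -0.26 and 0.93.

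From gd16.5 to gd19.5, no gene of the cluster was called by edgeR in WT (0 of 9, background 1.49%) or in KO (0 of 9, background 2.19%). At an unadjusted p under 0.05 there were 2 in WT, Ctla2a and Ctla2b (20.6% of all genes), and 1 in KO, Ctla2a (21.8%). Voom called 0 in WT (2.32%) and 2 in KO (2.03%). DESeq2 gave no p for Cts3 and Ctsm and called 0 of the 7 genes it tested in WT (background 1.83%) and in KO (2.62%). The 2 that voom called were Cts3 and Ctsm, which the fit of the 6 libraries called as well (1.46%). In KO, Cts3 went from 7076, 7611 and 7559 CPM at gd16.5 to 3738, 1969 and 3511 CPM at gd19.5 (log2 fold change -1.27, SE 0.83, edgeR adjusted p = 0.394). Ctsm went from 1789, 1838 and 1958 CPM to 941.3, 579.2 and 913.6 CPM (log2 fold change -1.198, SE 0.90, edgeR adjusted p = 0.467). The groups did not overlap for either gene. Their standard errors share the spread of all 24 libraries, KO gd10.5 replicate 2 included, and without that library both were called (adjusted p = 0.000175 for Cts3 and 7.73e-05 for Ctsm, background 3.05%). In WT, Cts3 had 6017, 6400 and 4955 CPM and then 3331, 3653 and 3873 CPM (log2 fold change -0.68), while Ctsq and Ctsj were at their highest WT means at gd19.5. Without KO gd10.5 replicate 2, WT Cts3 had an edgeR adjusted p of 0.0147 and WT Ctsm one of 0.0196 (log2 fold change -0.56). Ctsq (0.74, edgeR adjusted p = 0.0133) and Ctsr (0.48, edgeR adjusted p = 0.0431) rose in WT. All of these stayed under the fold threshold and were not called.

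The inhibitor genes did not share the steep course of the cathepsins. In WT, Ctla2a ranged from 1651 to 3103 CPM at gd10.5. It then ranged from 1765 to 1861 CPM in gd14.5 libraries, from 1663 to 1872 in those of gd16.5 and from 2059 to 2977 by gd19.5. No step was called in either genotype, and the largest, from gd16.5 to gd19.5, had a log2 fold change of 0.48 in WT (edgeR adjusted p = 0.184) and 0.52 in KO (edgeR adjusted p = 0.136). Ctla2b had only 84 to 235 counts in a library. In WT it stood at 5.91, 4.33 and 4.48 CPM at gd16.5 and at 7.41, 8.18 and 9.14 CPM at gd19.5, which do not overlap, and its log2 fold change of 0.75 (SE 0.16, edgeR adjusted p = 0.0147) passed the p threshold but not the fold threshold. Levels of Ctla2b are uncertain because of overlapping gene models. The model Gm49391, on the same strand, covers 60.1% of the exon bases of Ctla2b and 16.3% of those of Ctla2a, and Gm49392 covers 22.6% of Ctla2b. Reads that overlap 2 gene models are left uncounted under the stated counting settings, and Gm49391 itself had 34 to 140 counts. Gm49398 covers 51.5% of the exon bases of Cts8, and Gm49352 covers 18.9% of those of Ctsm.

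Between genes, levels are compared per length, as CPM per kilobase of merged exons (RPKM). At gd10.5 in WT, Ctsj had 1582 ± 143 RPKM (SD, n = 3) and Ctla2a 1094 ± 349.3, and the ranges of this pair overlapped. Ctsr followed with 187.4 ± 36.1, Ctsq with 40.3 ± 8.77, Cts3 with 17.1 ± 0.80, then Cts7 with 10.9 ± 2.85 and Ctsm with 9.997 ± 0.65, which overlapped, and Cts6 with 3.33 ± 0.91. By gd19.5 the WT order was Ctsj (10200 ± 1210), Ctsq (6575 ± 614.9), Cts6 (2942 ± 241.2), Cts3 (1526 ± 115), Ctla2a (1164 ± 224.1), Ctsr (893.7 ± 140.8) and Ctsm (481.3 ± 14.4). In that order, Ctla2a overlapped both Cts3 and Ctsr, and no other neighbours overlapped. Cts6 was above only Cts8 among the cathepsins at gd10.5 and below only Ctsj and Ctsq at gd19.5.

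Ctsj made up 85.5% ± 1.07 (SD, n = 3) of the summed RPKM of the 8 cathepsins in WT at gd10.5 and 44.5% ± 1.09, 41.8% ± 0.83 and 45.0% ± 0.79 at the 3 later stages. The share of Ctsq grew from 2.16% to 16.0%, 22.1% and 29.1% over the 4 stages in WT. Cts3 peaked at gd14.5 with 20.9% and was at 6.76% at gd19.5. Cts6 grew from 0.184% at gd10.5 to 4.99% at gd14.5 and 13% at gd19.5. In KO the shares at gd14.5 to gd19.5 were close to those in WT, with Ctsq at 15.8%, 21.9% and 30.6%, which is a description without a test. The 8 genes together took 0.295% ± 0.030 (SD, n = 3) of all counts in WT at gd10.5 and 1.51% ± 0.036, 2.66% ± 0.45 and 3.47% ± 0.29 at the later stages in order.

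**Figure D2:**
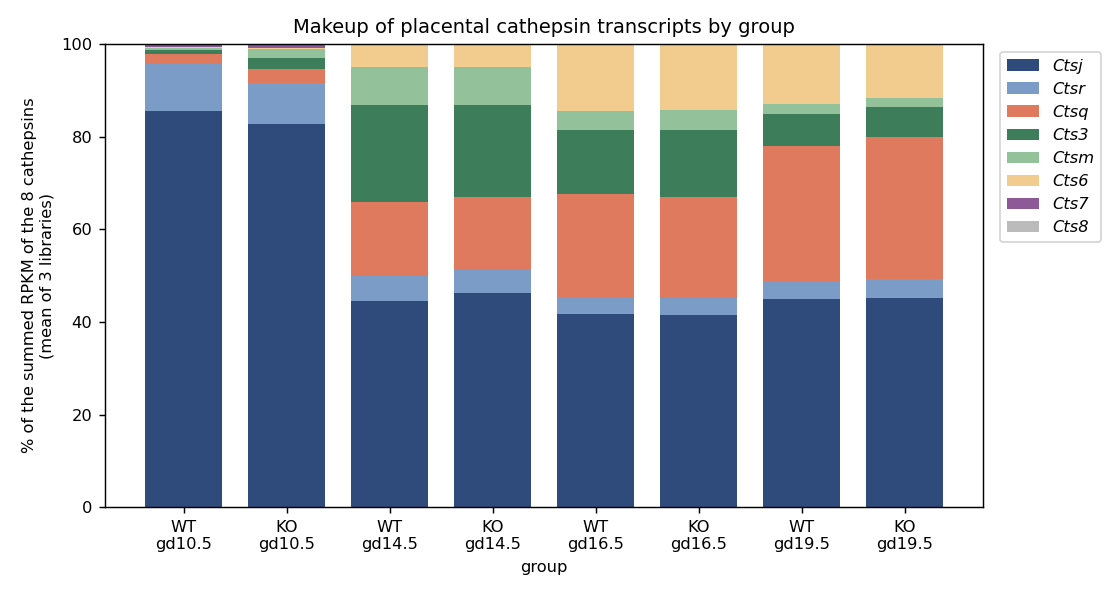
Share of each gene in the summed RPKM of the 8 cathepsins (percent, mean of 3 libraries) for each group. Ctsj holds 85.5% in WT at gd10.5 and 41.8% to 45.0% at the last 2 stages, and the share of Ctsq grows to 29.1% at gd19.5.

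The ratio of summed cathepsin RPKM to summed Ctla2a and Ctla2b RPKM gives the balance of protease and inhibitor transcripts. At gd10.5 it was 1.35 to 2.44 in WT and 0.999 to 5.48 in KO. The gd14.5 libraries had 9.25 to 10.7 in WT and 8.63 to 15.04 in KO. By gd16.5 it was 16.0 to 24.5 in WT and 32.5 to 33.0 in KO, and by gd19.5 it was 17.6 to 20.8 in WT and 20.5 to 21.3 in KO. The groups overlapped at 3 of the 4 stages. At gd16.5 all KO libraries lay above all WT libraries, at 32.6 ± 0.27 (SD, n = 3) against 21.3 ± 4.64. An exact permutation test of 3 against 3 libraries cannot give a two-sided p under 0.1, and the ratio was not tested further. Nearly all of the inhibitor sum, as counted, is Ctla2a, which had 160.9 to 481.7 times the RPKM of Ctla2b in a library. The Ctla2b part may be too low, since its transcript matches Gm49391 at 99.5% identity over 1094 bases and shared reads are left uncounted.

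**Figure D3:**
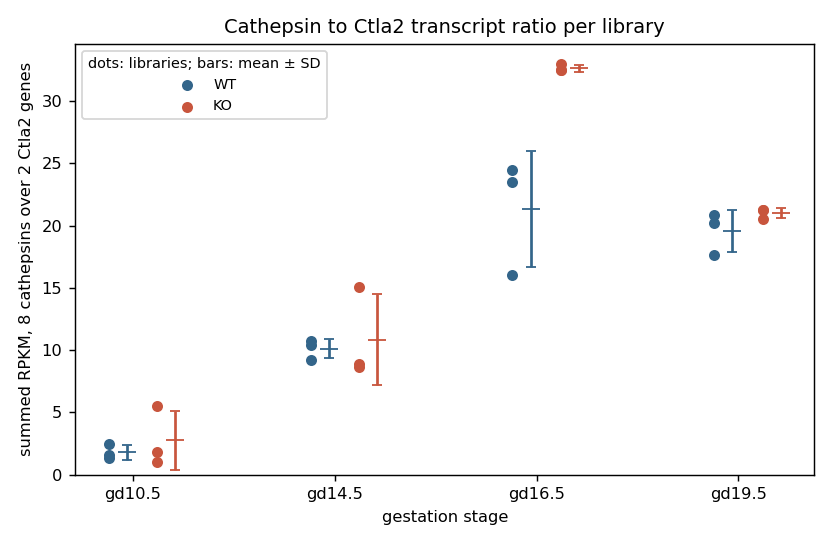
Summed RPKM of the 8 cathepsins divided by that of Ctla2a and Ctla2b, by stage; dots are libraries and bars the mean ± SD of 3. The KO libraries of gd16.5 lie at 32.5 to 33.0, above the WT libraries of that stage at 16.0 to 24.5.

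At gd10.5, KO was compared with WT over 3 libraries each. edgeR called 0 of the 9 genes tested (background 0.00572%), and 1, Cts6, had an unadjusted p under 0.05 (0.801% of all genes). Voom called 0 as well, and DESeq2 called 0 of 8 but gave no p for Cts3 and Ctsm. Cts6 was at 6.99, 7.20 and 5.85 CPM in KO against 5.92, 4.02 and 3.60 in WT, overlapping by 1 library on each side (log2 fold change 0.56, SE 0.23, edgeR adjusted p = 1). The comparison of Cts3 and Ctsm turns on KO replicate 2. In counts, Cts3 had 301, 15890 and 383 in KO against 1157, 1585 and 929 in WT, and Ctsm had 118, 11495 and 177 in KO against 542, 778 and 493. So 2 of the 3 KO libraries lay below every WT library and 1 lay far above. With all 6 libraries the log2 fold changes were 2.37 (SE 1.46) for Cts3 and 2.89 (SE 1.64) for Ctsm, and neither was called (edgeR adjusted p = 1 for both).

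Without that library the sign turned. The log2 fold change of Cts3 was then -1.72 (SE 0.12, edgeR adjusted p = 0.0288) and was called, among 0.0336% of all genes, and Ctsm had one of -1.93 (SE 0.18, edgeR adjusted p = 0.0533). With 2 KO libraries left, their spread rests on the pair and on the WT group. Ctsq (-0.58), Ctsr (-0.55) and Ctsj (-0.41) were not called and were negative too. Cts6 (0.51, SE 0.25) and Cts7 (0.68) were positive and were not called either. The 2 KO libraries left also lay below every WT library in Tpbpa, at 781.4 and 645.3 CPM against 1161 to 1770. The same held for Prl3b1, at 1239 and 1443 CPM against 2553 to 3596. In Prl3d1 they had 2982 and 1623 CPM against 1354 to 1939, which overlap. In KO replicate 2 itself, Ctsq had 339.5 CPM against 46.7 and 42.6 in the other KO libraries, Ctsj had 4375 against 1951 and 1424, and Ctsr had 466.9 against 204.1 and 156.3. Cts7 had 3.85 CPM against 43.4 and 16.1. Each of these shifts has the sign of the change from gd10.5 to gd14.5, as do those of Prl3d1, Prl3b1 and Tpbpa in the library. Cts6, which rose most with stage, did not stand out in it, at 7.20 CPM. The part of these trophoblast markers in the cathepsin values was not tested, nor that of the other cell type markers in KO replicate 2.

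**Figure D4:**
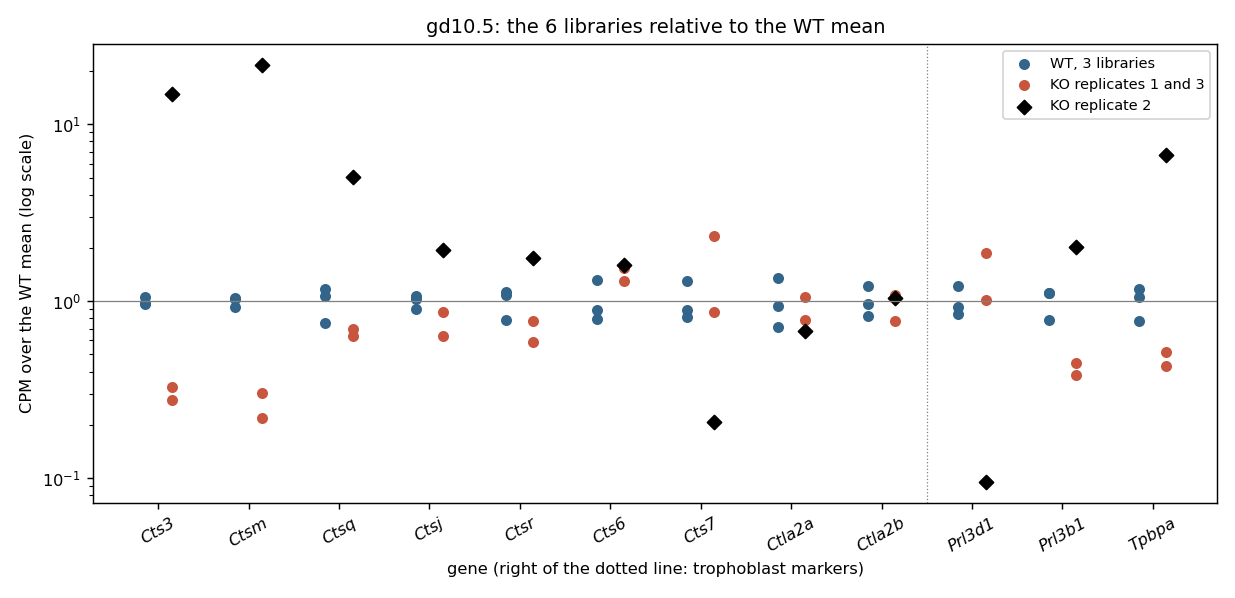
CPM of 9 cluster genes and 3 trophoblast markers in the 6 libraries of gd10.5, each divided by the WT mean (log axis). Black diamonds are KO replicate 2, which lies above all other libraries for Cts3, Ctsm, Ctsq, Ctsj, Ctsr, Prl3b1 and Tpbpa, narrowly so for Cts6, and below all others for Cts7 and Prl3d1, and narrowly for Ctla2a.

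At gd14.5, edgeR, DESeq2 and voom called 0 of the 8 genes tested (background 0.0166%), with 0 at an unadjusted p under 0.05 in edgeR (6.78% of all genes) and 1 each in DESeq2 and voom. The log2 fold changes of KO over WT lay between -0.16 and 0.05, with a median of -0.08. Cts3 was at 3593, 3808 and 4248 CPM in KO against 4339, 4351 and 4154 in WT. Ctsr was the gene whose groups did not overlap (12.5% of all genes), at 616.7, 549.1 and 611.2 CPM in KO against 626.8, 687.5 and 665.6 CPM in WT (log2 fold change -0.16, SE 0.08). Cts7 was not tested here or at later stages, where it had at most 18 counts.

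At gd16.5, no gene of the cluster was called, while the fitted values of KO over WT were positive for the cathepsins and negative for Ctla2a. edgeR, DESeq2 and voom called 0 of 8 (background 0.00586%), and 5 of 8 had an unadjusted p under 0.05 in edgeR, where 11.1% of all genes did. That count was 1 without KO replicate 2, 2 without KO replicate 3, 3 without KO replicate 1 or WT replicate 3, and 7 with the replicate block. The 6 cathepsins tested had positive log2 fold changes of 0.29 to 0.39. Cts3 was at 7076, 7611 and 7559 CPM in KO against 6017, 6400 and 4955 in WT (log2 fold change 0.37, SE 0.13, edgeR adjusted p = 0.43). Ctsm was at 1789, 1838 and 1958 CPM against 1490, 1607 and 1205 (0.39, SE 0.13, edgeR adjusted p = 0.421). Both pairs of groups do not overlap. Ctsr was at 1217, 1091 and 1004 CPM against 886.3, 1028 and 797.4, which overlap (0.30, SE 0.13, edgeR adjusted p = 0.448).

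Ctla2a was at 1495, 1426 and 1297 CPM in KO and 1663, 1734 and 1872 CPM in WT at gd16.5, with every KO library lower (log2 fold change -0.31, SE 0.10, edgeR adjusted p = 0.421). Ctla2b was at 7.17, 7.24 and 5.66 CPM against 5.91, 4.33 and 4.48, which overlap (0.46, SE 0.18, edgeR adjusted p = 0.4345). In all, 3 of the 8 genes had groups that did not overlap (17.7% of all genes). Cell type markers also differed between the genotypes at this stage, and none was called. The 7 giant cell markers summed to 19770 to 22180 CPM in KO and 12520 to 17560 in WT at gd16.5, and 6 of the 7 lay higher in every KO library. The 6 spongiotrophoblast and glycogen cell markers summed to 47400 to 51560 CPM in KO and 27920 to 39340 in WT. WT replicate 3, the lowest in Cts3, Cts6, Ctsj, Ctsm, Ctsq and Ctsr, was also the lowest in both sums. Labyrinth trophoblast markers lay the other way, at 462.5 to 648.3 CPM in KO and 658.8 to 764.7 in WT, with 4 of the 5 tested lower in KO. With Ctla2a, all 7 endothelial markers were lower in KO (760.1 to 1120 CPM in sum against 1050 to 1443), as were 4 of 5 smooth muscle markers (385.4 to 464.8 against 503.5 to 695.4) and 6 of 7 of decidual stroma (1583 to 2194 against 1660 to 2479). The part of these cell types in the differences was not tested.

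At gd19.5, all 8 genes tested had negative log2 fold changes, from -0.52 to -0.10 with a median of -0.28, where the median over all genes was -0.01. edgeR, DESeq2 and voom called 0 (background 0.023%), and 2 of 8 had an unadjusted p under 0.05 in edgeR (13.5% of all genes), 1 without WT replicate 2 or 3 or KO replicate 2 and 4 with the replicate block. Ctla2b was at 6.25, 5.70 and 5.69 CPM in KO and 7.41, 8.18 and 9.14 CPM in WT, without overlap (log2 fold change -0.52, SE 0.12, edgeR adjusted p = 0.158). Cts6 was at 3037, 2737 and 3844 CPM against 3726, 3886 and 4355 (-0.34, SE 0.15, edgeR adjusted p = 0.354). Ctsm did not overlap either, at 941.3, 579.2 and 913.6 CPM in KO and 956.6, 952.4 and 1005 in WT (2 of 8, against 21.4% of all genes). KO replicate 2 was the lowest library in Cts3, Cts6, Ctsm and Ctsr at this stage, and also in the giant cell sum, at 13250 CPM against 14420 to 19740 in the others. The 6 spongiotrophoblast and glycogen cell markers were all lower in KO (20700 to 28840 CPM in sum against 24660 to 32670), while the 7 endothelial markers (1003 to 1264 against 922.9 to 1073) and the 5 smooth muscle markers (575.8 to 762.7 against 537.1 to 650.1) were all higher. Decidual stroma markers summed to 1829 to 2168 CPM in KO and 2378 to 3644 in WT, which did not overlap. Of its 7 markers, 4 were lower in KO and 3 higher. None of these markers was called, and their part in the values of the cluster was not tested.

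**Figure D5:**
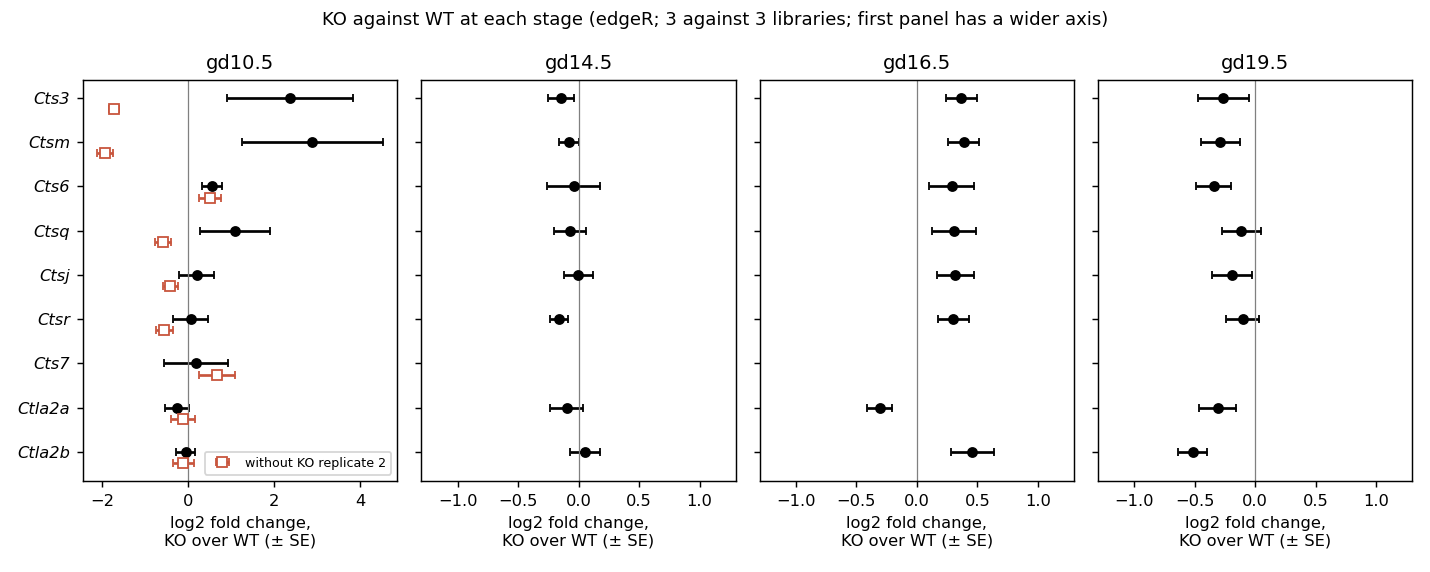
log2 fold change of KO over WT (± SE, edgeR, 3 against 3 libraries) at each stage; open squares at gd10.5 leave out KO replicate 2. Cts7 has no value after gd10.5 because it was too low to test. The values for Cts3 and Ctsm at gd10.5 change sign without that library.

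Over all stages, with stage in the model, edgeR called 0 of 9 genes for genotype (background 0.0155%), as did voom, and 1 had an unadjusted p under 0.05 (6.34% of all genes). It was Ctla2a (log2 fold change -0.24, SE 0.10, edgeR adjusted p = 0.733). DESeq2 called 0 of the 6 genes it tested and gave no p for Cts3, Ctsm and Ctsq. Whether the effect of the KO depended on stage was asked with an interaction term of genotype and stage. edgeR called 0 of 9 (background 0%), with 1 at an unadjusted p under 0.05 (7.23% of all genes), Ctla2b (edgeR adjusted p = 0.5985). This term asks about all stages jointly, so the positive values of gd16.5 were not tested against the negative ones of gd19.5 by themselves. Its fit shares the spread of all 24 libraries, KO gd10.5 replicate 2 included. Without KO gd10.5 replicate 2, Cts3 (edgeR adjusted p = 0.00301) and Ctsm (edgeR adjusted p = 0.000399) were called for the interaction, among 0.214% of all genes.

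Among the other lysosomal proteases, the 15 genes of a list of other cathepsins and legumain were all in the table. From gd10.5 to gd14.5 in WT, 1 rose and 4 fell of the 15 tested. Ctsa, a serine carboxypeptidase, rose from 214.4 ± 11.7 to 478.6 ± 45.7 CPM (SD, n = 3), by 1.16 on the log2 scale (edgeR adjusted p = 2.22e-07). Those that fell were Ctsw, found in cytotoxic lymphocytes (-4.28), the granule protease Ctsg (-2.44), Ctsc, which activates granule proteases (-1.71), and Ctso (-1.02). The median log2 fold change of the 15 was 0.0081, against 1.32 over the 9 genes of the cluster that were tested and -0.02 over all genes tested. Ctsb and Ctsl, the general lysosomal enzymes, were at 1122 ± 100.8 and 823.5 ± 136 CPM in WT at gd10.5 and at 1730 ± 119.5 and 919.9 ± 29.3 at gd14.5, and were not called. Later, Ctse and Ctsf rose and Ctsg fell from gd14.5 to gd16.5 in WT, and 0 of 15 were called from gd16.5 to gd19.5. No gene of the list was called between KO and WT at any stage by edgeR (0 of 14 or 15), with 0, 0, 3 and 1 at an unadjusted p under 0.05 in stage order.

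Of the cystatins and stefins, the classical inhibitors of cysteine cathepsins, 12 of 14 listed genes were in the table and 5 were tested over all 24 libraries. Cst6 rose from 1.33 ± 0.062 to 3.88 ± 0.67 CPM (SD, n = 3) from gd10.5 to gd14.5 in WT (log2 fold change 1.54, edgeR adjusted p = 9.11e-06), and Cst7, a cystatin of cytotoxic lymphocytes, fell from 25.2 ± 7.51 to 3.51 ± 0.73 CPM (-2.85, edgeR adjusted p = 2.6e-06). Cst3 (cystatin C), a secreted one, was at 183.4 ± 34.6 and 278.9 ± 0.90 CPM and was not called. edgeR called 0 between KO and WT at every stage, with 0, 0, 2 and 0 at an unadjusted p under 0.05.

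Likeness of course over the 24 libraries was measured as the root mean square difference of centred log2 CPM, among 19298 other genes for each. Nearest to Ctsm was Psg18 (0.193), a pregnancy-specific glycoprotein, and nearest to Cts3 was Ceacam14 (0.238) of a related family. Cts6 was closest to Prl3a1 (0.475), and Cts7 to Prl3d2 (0.756), a placental lactogen gene that went from 54.65 ± 8.49 to 0.781 ± 0.16 CPM (SD, n = 3) between gd10.5 and gd14.5 in WT. The nearest of all to Ctsj was Ctsr (0.212), and outside the cluster Gm5133 (0.217), while Ctsr was nearest to AU015836 (0.181). For Ctsq the nearest was Gm45104 (0.420). Ctla2a and Ctla2b, which varied little over the libraries (SD of 0.318 and 0.359 in log2 CPM), were nearest to Pon3 (0.152) and Fam193b (0.156). The likeness is a description over libraries that share stages. Within the cluster, Ctsm was at place 5 among the genes nearest to Cts3. The nearest member to Cts7 was Ctla2a, at place 7576. Ctla2b was at place 6641 for Ctla2a, and Ctla2a at place 5772 for Ctla2b, so this pair alike in sequence was not near by place. Its difference of 0.415 was larger than the SD of either gene. That of Cts3 and Ctsm, 0.423, was small beside their SDs of 3.14 and 2.84 in log2 CPM.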

How the data were processed

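PolyA RNA of 24 libraries was sequenced as paired-end reads from a stranded kit. Per the labels, the authors used Trim Galore (0.6.4), STAR (2.7.3a) and featureCounts of Subread (2.0.0) on GRCm38, and deposited raw read counts per gene. The methods name default counting settings, so reads of either strand were counted. KO libraries are numbered here as in the sample descriptions.

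Counts were tested with edgeR (4.0.16) quasi-likelihood fits, TMM scaling, filterByExpr (minimum count 10, total 15) and Benjamini-Hochberg adjustment over all genes tested. KO was compared with WT within the 6 libraries of a stage, and stages within the fit of all 24. A call needed an adjusted p under 0.05 and, but for the fits over all stages, an absolute log2 fold change over 1. CPM used TMM sizes of the 24 libraries, and RPKM divided them by kilobases of merged exons. Alternatives were DESeq2 (1.42.0), limma voom (3.58.1), other scaling, no filter, other library sets, a replicate block and leaving out each library. Scripts were tested on simulated data. Genes named outside the cluster were taken from lists of markers, other cathepsins and cystatins, or were the nearest in pattern. The members and lists were chosen with earlier results of these data known. Leaving out KO gd10.5 replicate 2 from the fits of later stages was chosen after seeing the data. Transcripts were compared with BLAST (2.17.0). Intervals of counting error were not needed, since groups hold 3 libraries, and the limit of 3 counts covers counting error only.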

Additional observations from a re-analysis of the deposited data

Results flagged for a closer look

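The difference between KO and WT libraries in Cts3 and Ctsm varied with stage once KO gd10.5 replicate 2 was left out. The genotype-by-stage interaction then had an edgeR adjusted p of 0.003006 for Cts3 and 0.0003992 for Ctsm. With all libraries neither was called (edgeR adjusted p = 0.758 for Cts3 and 0.723 for Ctsm). Over the 28 alternatives computed for each gene the adjusted p ran from 0.003006 to 0.9979 for Cts3 and from 0.0003992 to 0.9979 for Ctsm, and 1 of the 28 was under 0.05 for each. Without the library, Cts3 had a log2 fold change of -1.72 and Ctsm one of -1.93 at gd10.5, where both other KO libraries lay below every WT library, while at gd16.5 they had 0.37 and 0.39. The other KO libraries of gd10.5 also lay below every WT library in Tpbpa and Prl3b1, but not in Prl3d1. The part of these markers in the values of Cts3 and Ctsm was not tested. The choice to leave KO gd10.5 replicate 2 out was made after its values had been seen.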

How the results depend on the processing

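Of 824 alternative values for 65 results on single genes, 771 kept their direction and their side of the threshold, 16 lost a call, 7 gained one and 30 changed sign. Rescaling moved the median of all genes by less than 0.01 on the log2 scale. Without KO gd10.5 replicate 2, 2 genes were called for the interaction, 1 for KO against WT at gd10.5 and 2 (Cts3 and Ctsm) for KO gd19.5 against gd16.5. Leaving out single libraries gave 0 to 2, 0 to 1 and 0 to 2 calls in these, and in the last of them voom and the fit of the 6 libraries also called 2. The fit of the 6 libraries called 3 for KO gd14.5 against gd10.5. For WT gd16.5 against gd14.5 the replicate block called 1, leaving out single libraries gave 1 to 2, and for WT gd19.5 against gd16.5 dropping the fold threshold called 1, Ctla2b. Replicate numbers were not shown to pair the libraries, since in no comparison did all 3 same-numbered pairs correlate over 0.1, and the block changed no other count of calls by over 1.5 times.

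For KO against WT at gd10.5, Cts3 turned to -1.29 with voom, -0.26 with the block and -1.72 to 2.94 over left-out libraries, and Ctsm to -1.47, -0.34 and -1.93 to 3.47. The other sign changes were of values that were not called. These were small except for Cts7, which had few counts at the stages compared. Ctsj in KO gd19.5 against gd16.5 was 0.0063 with DESeq2, 0.0026 with other scaling, 0.004 without a filter, 0.0028 with the block and -0.0866 to 0.0746 over left-out libraries. With voom, Cts7 was -0.265 in KO gd16.5 against gd14.5 and -0.23 in WT gd19.5 against gd16.5, and Ctsm 0.0283 in WT gd16.5 against gd14.5. Over left-out libraries, Ctla2a ran from -0.3285 to 0.0036 in KO gd14.5 against gd10.5 and from -0.0791 to 0.0117 in WT gd16.5 against gd14.5. In the latter comparison Ctla2b ran from -0.1196 to 0.114, Cts7 from -0.4629 to 0.9622 and Ctsm from -0.0988 to 0.104. In WT gd19.5 against gd16.5, Cts6 ran from -0.0039 to 0.3131 and Cts7 from -0.6118 to 1.0371, and in KO gd16.5 against gd14.5 Cts7 ran from -0.14 to 0.7594. In KO gd14.5 against gd10.5, Ctsj and Ctsr fell under the fold threshold without KO gd10.5 replicate 1 (0.92 and 0.93) or 3 (0.80 and 0.82), and Ctsq in KO gd16.5 against gd14.5 had an adjusted p of 0.0502 without KO gd14.5 replicate 2. DESeq2 gave no p for Cts3 and Ctsm at gd10.5 or in any fit of all 24 libraries, so its counts of calls leave them out. The causes of these changes were not tested. Cts7 after gd10.5, Cts8 and Ctla2b are limited by counts, and 3 libraries a group limit every test.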
